A study of Mus musculus with 12 samples.

Results

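The Bcl2 family in the thymus was followed through 10 genes taken by symbol from the mRNA table, out of 22843 genes in that table. They were the survival genes Bcl2, Bcl2l1 (Bcl-xL) and Mcl1, the pore-forming genes Bax and Bak1, and the BH3-only genes Bcl2l11 (Bim), Bbc3 (Puma), Pmaip1 (Noxa), Bad and Bid. Each value is the sum over the transcript rows that carry the symbol, and all 10 symbols were matched exactly. The samples were whole thymuses of male wild type C57BL/6 mice aged 2 weeks (2W), 6 weeks (6W) and 3 months (3M), with 2 biological replicates per age. No allele or agent set the groups apart, so age was the only factor. The study asks what changes while the thymus grows (6W against 2W) and while it begins to shrink (3M against 6W), and 3M against 2W spans both. The 3 comparisons share libraries, so their values are given side by side and are not separate evidence of each other.

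Survival proteins of the Bcl2 family hold the pore-formers Bax and Bak in check at the mitochondrial surface. BH3-only proteins are made or activated when a cell loses growth factor support, is damaged or receives a strong antigen receptor signal, and they bind the survival proteins until the pore-formers are freed, cytochrome c escapes and caspases are activated. Most thymocytes die before they leave the thymus, either by neglect or by negative selection, and Bim is the BH3-only protein best known for the second. Bcl-xL is known as the survival protein of CD4 and CD8 double-positive (DP) thymocytes, Bcl2 as that of mature thymocytes, and Mcl1 is needed at several stages.

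The mRNA libraries held 16519753 to 22553481 estimated counts, and 14805 genes, including all 10 members, had enough counts to be tested. Spearman correlations of libraries were 0.983 to 0.993 within an age and 0.968 to 0.988 between ages. The 3M replicate 2 library stood apart in red blood cell genes, whose 6 markers summed to 2162 CPM (normalised counts, scaled to library size) there and to 401 to 814 CPM in the other 5 libraries. Values below are CPM after TMM scaling, or FPKM (abundance scaled by transcript length and depth, as the authors gave it) where levels of different genes are compared. Paired values are those of replicates 1 and 2 in that order.

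Between 3M and 2W, 1 of the 10 members passed an adjusted p under 0.05 in edgeR's quasi-likelihood test, against 11% of all 14805 genes (1630). That member was Bcl2l1, which fell, as did 3.1% of all genes by the same test. None of the 10 was called in 6W against 2W, where 1.74% of all genes were (257), and none in 3M against 6W, where 0.00675% were (1 gene). At an unadjusted p under 0.05, 0, 4 and 6 members passed in 6W against 2W, 3M against 6W and 3M against 2W, against 18.9%, 14.3% and 27.3% of all genes. The threshold of the study, a log2 fold change beyond 1 in either direction together with an unadjusted p under 0.05, was met by no member in any comparison, and by 5.36%, 2.11% and 9.35% of all genes. The fitted change furthest from 0 was 0.79 on the log2 scale, for Pmaip1.

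**Figure D1:**
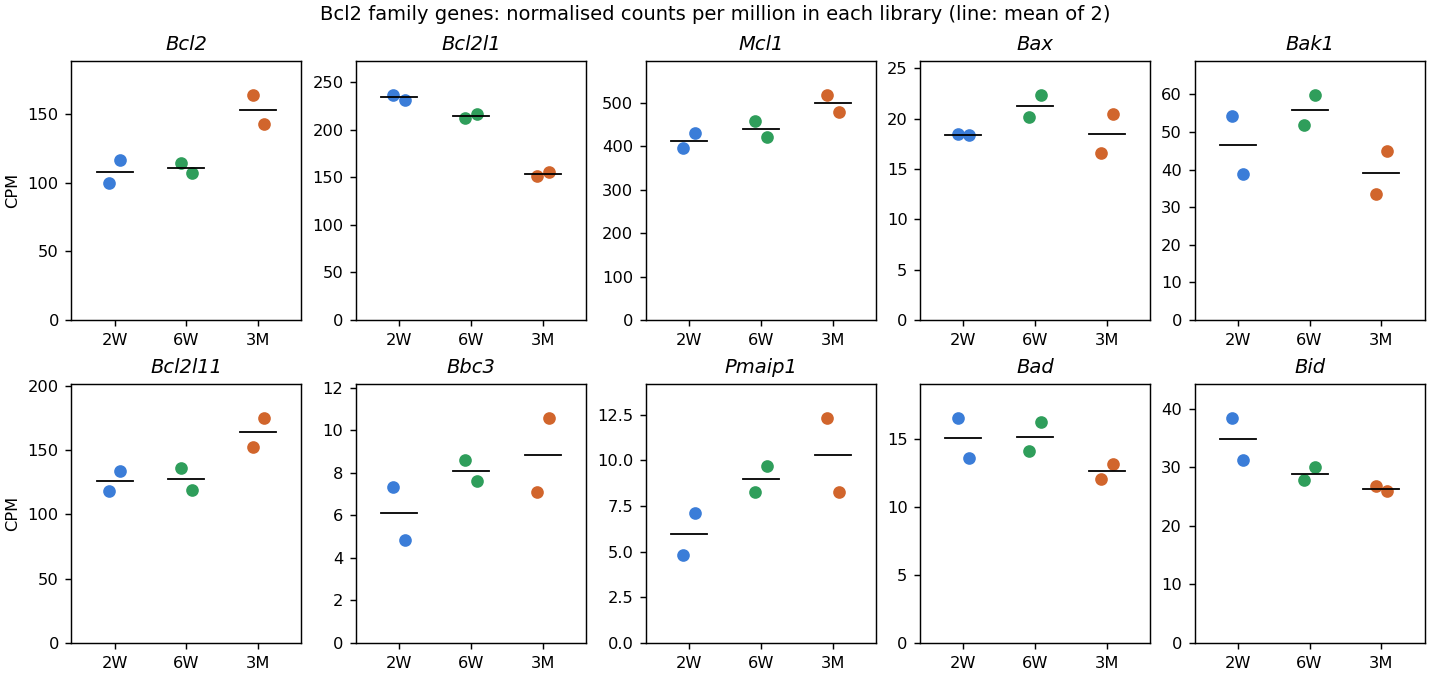
Normalised counts in CPM (vertical axes, from 0) of the 10 genes at 2W, 6W and 3M. Each point is 1 library and the line is the mean of 2. The 3M libraries of Bcl2l1 (151 and 156 CPM) lie below its other 4 libraries, and those of Bcl2, Mcl1 and Bcl2l11 lie above their other 4.

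Among the survival genes, Bcl2l1 was at 237 and 232 CPM at 2W, 213 and 216 CPM at 6W, and 151 and 156 CPM at 3M. Every age was separated from the next, with the wider step between 6W and 3M. Means were 234 ± 3.64, 215 ± 2.48 and 154 ± 3.17 CPM (SD, n = 2). The log2 fold change was -0.61 ± 0.097 (SE) for 3M against 2W (95% interval -0.84 to -0.38, edgeR adjusted p = 0.0152), or 0.656 of the 2W level. For 3M against 6W it was -0.48 ± 0.097 (adjusted p = 0.206), and for 6W against 2W it was -0.13 ± 0.097 (adjusted p = 0.510). The call for 3M against 2W was lost in 6 of 14 alternative settings: with the 4 libraries of the 2 ages alone (adjusted p = 0.0669) or a term for the replicate number (0.0566), and without 2W replicate 1, 2W replicate 2, 6W replicate 1 or 6W replicate 2 (0.0777, 0.0809, 0.0667 or 0.0672). The log2 fold change stayed between -0.66 and -0.53 under all 14. Without 3M replicate 2, the library with the high red blood cell genes, it was -0.66 (adjusted p = 0.024). In whole tissue, fewer cells of a type and less RNA per cell cannot be told apart.

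Some of the 7 DP thymocyte markers were lower at 3M as well. Together they summed to 14835 to 16528 CPM at 2W, 13686 to 13690 CPM at 6W and 11809 to 11884 CPM at 3M. None of the 7 was at 0, and 4 of 7 (Cd8a, Arpp21, Cd4 and Rag1) were lower at 3M than at 2W (edgeR adjusted p from 0.0179 to 0.0359), where 3.1% of all genes were. Cd8a, for example, had a log2 fold change of -0.52, and Rag1, an enzyme of antigen receptor gene rearrangement and the largest part of the sum, one of -0.43. Rag2 (-0.55, adjusted p = 0.0733), Cd8b1 (-0.24, adjusted p = 0.425) and Dntt (-0.02, adjusted p = 0.898) were not called, and the means of Cd8b1 (580, 760 and 492 CPM at 2W, 6W and 3M) and Dntt (1434, 1661 and 1411 CPM) were highest at 6W, unlike those of Bcl2l1. The part of these markers in the Bcl2l1 result was not tested.

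Bcl2l1 lies on chromosome 2 at 152758732 to 152833803 (GRCm38.p6). The RefSeq start windows used here, from 250 bases before to 50 after a start, include 3 for it, and the range of the gene reaches beyond the furthest of them. They are shown because Bcl2l1 was the member called in 3M against 2W. None held the STAT or forkhead letters spelled out below, which would be in capitals. The windows are chr2:152828440-152828739, chr2:152830668-152830967 and chr2:152831679-152831978, all on the minus strand.
Bcl2l1 window 1: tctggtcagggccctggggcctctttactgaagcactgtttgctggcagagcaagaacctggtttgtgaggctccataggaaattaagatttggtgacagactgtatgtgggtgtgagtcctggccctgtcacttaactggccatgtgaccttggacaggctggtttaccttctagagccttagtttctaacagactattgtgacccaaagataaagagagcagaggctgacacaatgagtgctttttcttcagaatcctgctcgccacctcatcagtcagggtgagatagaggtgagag
Bcl2l1 window 2: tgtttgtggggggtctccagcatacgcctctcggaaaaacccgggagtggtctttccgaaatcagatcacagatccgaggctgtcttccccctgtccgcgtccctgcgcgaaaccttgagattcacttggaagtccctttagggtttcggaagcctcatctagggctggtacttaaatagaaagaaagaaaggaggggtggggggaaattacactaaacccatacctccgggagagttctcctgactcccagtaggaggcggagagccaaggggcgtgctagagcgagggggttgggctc
Bcl2l1 window 3: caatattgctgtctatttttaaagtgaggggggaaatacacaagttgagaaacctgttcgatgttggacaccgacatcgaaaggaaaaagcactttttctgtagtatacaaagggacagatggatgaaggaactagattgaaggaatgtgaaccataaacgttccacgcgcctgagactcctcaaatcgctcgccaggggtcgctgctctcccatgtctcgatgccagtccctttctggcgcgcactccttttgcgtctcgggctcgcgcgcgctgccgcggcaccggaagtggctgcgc
The first window had 1 CpG and 49.3% G and C, where the 32851 windows of all genes had medians of 7 CpG and 52.7%, and the other windows of Bcl2l1 had 14 and 22 CpG. The palindrome bound by STAT5 downstream of IL-7, TTCNNNGAA, was on neither strand of the 15 windows of 9 members and in 8.3% of all windows. A match is only a run of letters in this window, and which of the starts is used was not measured.

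Bcl2 was at 99.6 and 116 CPM at 2W, 114 and 107 CPM at 6W, and 164 and 142 CPM at 3M. Both 3M libraries were above the other 4, and 2W and 6W overlapped. Its log2 fold change was 0.50 ± 0.13 (SE) for 3M against 2W (95% interval 0.19 to 0.82, edgeR adjusted p = 0.0574) and 0.47 ± 0.13 for 3M against 6W (adjusted p = 0.242), with 0.04 for 6W against 2W (adjusted p = 0.896). The 3M against 2W difference missed the threshold in this fit and passed it with DESeq2 (adjusted p = 0.00891), with total counts as the scaling (0.0342) and with limma on FPKM (0.0343), 3 of the 14 alternative settings. It missed it in the others, at an adjusted p from 0.0531 to 0.232, the highest without 2W replicate 1, where the log2 fold change was 0.40.

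Bcl2 lies on chromosome 1 at 106538176 to 106714290, and its window chr1:106714241-106714540, minus strand, is shown beside those of Bcl2l1 because its fitted change was of the opposite sign, although Bcl2 was not called.
Bcl2 window 1: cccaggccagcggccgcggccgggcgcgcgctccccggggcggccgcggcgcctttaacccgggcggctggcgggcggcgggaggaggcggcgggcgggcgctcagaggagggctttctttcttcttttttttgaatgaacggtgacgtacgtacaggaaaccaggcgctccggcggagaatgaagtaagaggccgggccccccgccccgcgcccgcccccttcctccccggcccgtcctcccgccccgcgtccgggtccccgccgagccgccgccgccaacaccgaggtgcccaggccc
It held 44 CpG and 76% G and C, and none of the STAT, forkhead (GTAAACA) or E-box (CANNTG) letters. The E-box letters were in 10 of the 15 member windows and in 72.3% of all windows.

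The summed level of markers of mature thymocytes, the cells in which Bcl2 is known to be high, did not follow the course of Bcl2. The 6 markers summed to 346 to 355 CPM at 2W, 474 to 495 CPM at 6W and 481 to 487 CPM at 3M, with none at 0, so the sum was already at its 3M range at 6W, when Bcl2 was still at its 2W range. At 3M against 2W, 2 of the 6 (Il7r and Itgb7) were higher, where 7.91% of all genes were. Their part in the Bcl2 values was not tested.

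Mcl1, a short-lived survival protein, was at 397 and 431 CPM at 2W, 459 and 421 CPM at 6W, and 519 and 480 CPM at 3M. Its 3M libraries were the highest, and 2W and 6W overlapped. The log2 fold change was 0.27 ± 0.11 (SE) for 3M against 2W (95% interval 0.02 to 0.53, edgeR adjusted p = 0.158), 0.18 for 3M against 6W (adjusted p = 0.466) and 0.09 for 6W against 2W (adjusted p = 0.676), the last from 0.028 to 0.18 with 1 library left out and 0.27 with annotated rows only. The E3 ligases and deubiquitinase that set the half-life of Mcl1 protein gave no call, 0 of 6 in each comparison. Of all genes, 1.74%, 0.00675% and 11% were called in 6W against 2W, 3M against 6W and 3M against 2W, so 0 of 6 is near that share. Fbxw7 (log2 fold change -0.46, edgeR adjusted p = 0.0706) and Fbxo4 (0.90, adjusted p = 0.0737) were nearest to a call in 3M against 2W.

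Compared per length, Mcl1 and Bcl2l1 carried most of the survival RNA. Mcl1 was at 97.9 and 106 FPKM at 2W, 122 and 111 FPKM at 6W, and 132 and 127 FPKM at 3M. Bcl2l1 was at 96.0 and 96.3 FPKM at 2W, 90.7 and 89.0 FPKM at 6W, and 64.1 and 68.9 FPKM at 3M. The summed level of Mcl1 was above that of Bcl2l1 in every library, narrowly at 2W (1.02 and 1.11 times) and more widely at 3M (2.06 and 1.85 times), with 6W between (1.35 and 1.25 times). The Mcl1 sum included an assembled row, TCONS_00075355, at 28.5 to 49.3 FPKM. The annotated Mcl1 row alone was at 64.3 and 70.2 FPKM at 2W, 90.0 and 82.8 FPKM at 6W, and 82.5 and 85.8 FPKM at 3M. That was below Bcl2l1 in the 2W and 6W libraries and above it at 3M. Bcl2 was far lower, at 16.4 to 18.5 FPKM in the 2W and 6W libraries and 27.9 and 24.0 FPKM at 3M.

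The ratio of Bcl2 to Bcl2l1 in FPKM was 0.171 and 0.192 at 2W, 0.201 and 0.197 at 6W, and 0.435 and 0.349 at 3M. The 3M ratios stood clear of the other 4. The 3 genes together summed to 210 and 221 FPKM at 2W, 231 and 218 FPKM at 6W, and 224 and 220 FPKM at 3M, so that the sums of the ages overlapped while the makeup shifted. Bcl2l1 made up 45.6% and 43.5% of the sum at 2W, 39.3% and 40.9% at 6W, and 28.6% and 31.3% at 3M. The share of Mcl1 was 46.6% and 48.1% at 2W, 52.8% and 51.1% at 6W, and 58.9% and 57.8% at 3M. All sums and shares here count the assembled row of Mcl1. With 2 libraries against 2, an exact permutation test of such a ratio cannot go below p = 0.333. The ratios and shares are of chosen members and are given as a description, without a test.

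**Figure D2:**
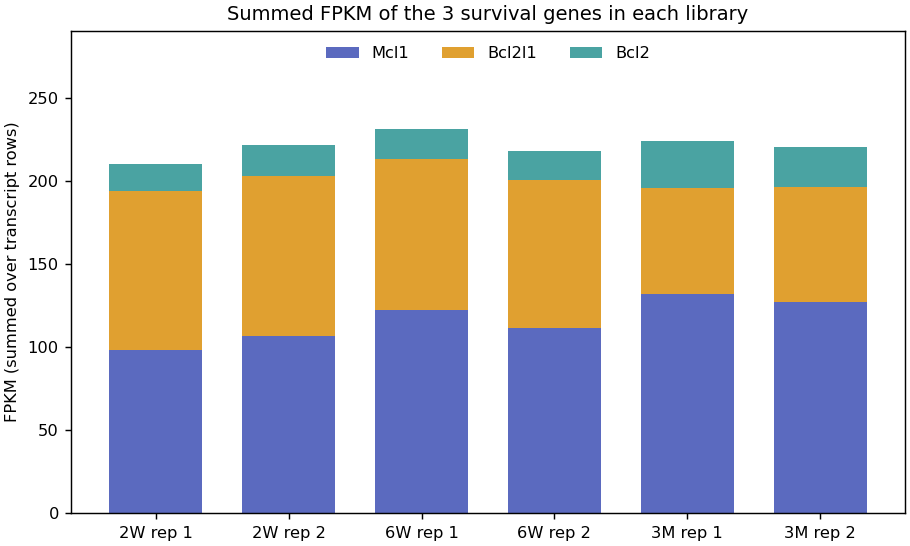
Stacked bars from 0 of the FPKM of Mcl1, Bcl2l1 and Bcl2 in each of the 6 libraries (rep, replicate). The Mcl1 segment includes its assembled row. The total lies between 210 and 231 FPKM in every library, while the Bcl2l1 segment is 64.1 and 68.9 FPKM at 3M and 89.0 to 96.3 FPKM in the other libraries.

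Of the pore-formers, Bax was at 18.5 and 18.4 CPM at 2W, 20.2 and 22.4 CPM at 6W, and 16.6 and 20.4 CPM at 3M. The 3M libraries spanned the 2W values. Its log2 fold changes were 0.21 for 6W against 2W, -0.20 for 3M against 6W and 0.01 for 3M against 2W, with edgeR adjusted p of 0.469, 0.555 and 0.977, and the interval of the last was -0.34 to 0.36. With 1 library left out the 3M against 6W value ran from -0.41 to -0.052. Bak1, the mitochondria-resident partner of Bax, was at 54.3 and 38.9 CPM at 2W, 51.8 and 59.9 CPM at 6W, and 33.5 and 44.9 CPM at 3M. Its 2W replicates were as far apart as the ages, and 3M lay below 6W without overlap. The Bak1 log2 fold change was -0.51 ± 0.21 (SE) for 3M against 6W (95% interval -1.01 to -0.01, edgeR adjusted p = 0.344), 0.26 for 6W against 2W (adjusted p = 0.525) and -0.25 for 3M against 2W (adjusted p = 0.502). With 1 library left out these ran from -0.79 to -0.31, from 0.07 to 0.52 and from -0.51 to 0.01, in that order. Per length the pair stood at like levels, with Bax at 17.2 to 23.6 FPKM and Bak1 at 13.3 to 24.6 FPKM.

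Of the 5 BH3-only members, Bcl2l11 was the most abundant per length, at 25.1 to 38.7 FPKM, and made up 42.9% to 55.9% of their FPKM. BH3-only genes outside the members were not compared per length. Among these, Bmf had mean CPM of 208, 149 and 168 at 2W, 6W and 3M, above the Bcl2l11 means of 126, 128 and 164. In CPM Bcl2l11 was at 118 and 134 at 2W, 136 and 119 at 6W, and 153 and 175 at 3M. Both 3M libraries were above the other 4. The log2 fold change was 0.38 ± 0.13 (SE) for 3M against 2W (95% interval 0.06 to 0.70, edgeR adjusted p = 0.124) and 0.36 ± 0.13 for 3M against 6W (adjusted p = 0.309), with 0.02 for 6W against 2W. With 1 library left out the 3M against 2W value ran from 0.24 to 0.50 and the 3M against 6W value from 0.21 to 0.47. Bcl2l11 lies on chromosome 2 at 128126038 to 128162547, and 1 of its 2 windows, chr2:128125788-128126087 on the plus strand, held the forkhead letters GTAAACA that FoxO factors, known activators of Bim, can bind. It is shown with them in capitals.
Bcl2l11 window 1: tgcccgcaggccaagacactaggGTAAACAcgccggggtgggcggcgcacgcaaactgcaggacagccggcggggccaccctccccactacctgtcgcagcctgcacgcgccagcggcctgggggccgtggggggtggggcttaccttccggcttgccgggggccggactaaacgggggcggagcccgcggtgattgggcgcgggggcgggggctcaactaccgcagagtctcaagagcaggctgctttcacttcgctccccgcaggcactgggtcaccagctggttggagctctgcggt
Across the 15 member windows these letters were in 2, the other in Bbc3, against 3.65% of all windows. Foxo3 itself was at 206 to 242 CPM in the 6 libraries and was not called.

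Set against its partners in FPKM, Bcl2l1 stood at 3.82 and 3.36 times Bcl2l11 at 2W, 3.04 and 3.29 times at 6W, and 1.95 and 1.78 times at 3M. The 3M ratios were below all others. Mcl1 was at 3.29 to 4.11 times Bcl2l11, with 2W and 3M overlapping and both 6W ratios (4.10 and 4.11) above the other 4. Bcl2 was at 0.612 to 0.848 times Bcl2l11, with overlapping ages. These ratios carry no test, as above for the others.

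Pmaip1, the BH3-only gene whose product binds Mcl1, was low, at 4.81 and 7.11 CPM at 2W, 8.29 and 9.71 CPM at 6W, and 12.3 and 8.29 CPM at 3M. The 2W libraries were the lowest, and 6W and 3M overlapped. Its log2 fold change of 0.79 ± 0.28 (SE) for 3M against 2W was the furthest from 0 among the members (95% interval 0.11 to 1.46, edgeR adjusted p = 0.129), with 0.59 for 6W against 2W (adjusted p = 0.310). It rests on 76 to 220 estimated counts per library, so its error is wide.

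Bbc3, a p53 target, was at 7.33 and 4.84 CPM at 2W, 8.58 and 7.59 CPM at 6W, and 7.10 and 10.6 CPM at 3M. The 3M replicates spread around the 6W values. The log2 fold change was 0.54 ± 0.28 (SE) for 3M against 2W (edgeR adjusted p = 0.275) and 0.41 for 6W against 2W (adjusted p = 0.464), on 79 to 236 estimated counts per library. The former was 0.19 without 3M replicate 2 and 0.87 without 2W replicate 1.

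Bid links death receptors to mitochondria after cleavage by caspase-8. It was at 38.4 and 31.3 CPM at 2W, 27.8 and 30.1 CPM at 6W, and 26.8 and 25.9 CPM at 3M. Each age lay below the one before without overlap, and the log2 fold change was -0.40 ± 0.14 (SE) for 3M against 2W (95% interval -0.73 to -0.08, edgeR adjusted p = 0.114). Bad, which is held inactive by phosphorylation under growth factor signalling, was at 16.6 and 13.6 CPM at 2W, 14.1 and 16.2 CPM at 6W, and 12.1 and 13.2 CPM at 3M. The 3M libraries were the lowest by a small margin, with a log2 fold change of -0.26 ± 0.16 (SE) for 3M against 2W (adjusted p = 0.368).

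Libraries of the ages did not overlap for 5 of 10 members in 6W against 2W, 7 of 10 in 3M against 6W and 7 of 10 in 3M against 2W, where 57.8%, 49.2% and 51.8% of all genes did not overlap. The members' median log2 fold change was 0.06, 0.00 and 0.14, against -0.01, 0.02 and -0.03 over all genes tested. In 3M against 2W the fitted change was above 0 for 2 of 3 survival genes, 3 of 5 BH3-only genes and 1 of 2 pore-formers (Bax, at 0.01). Both pore-formers were above 0 in 6W against 2W and below 0 in 3M against 6W.

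**Figure D3:**
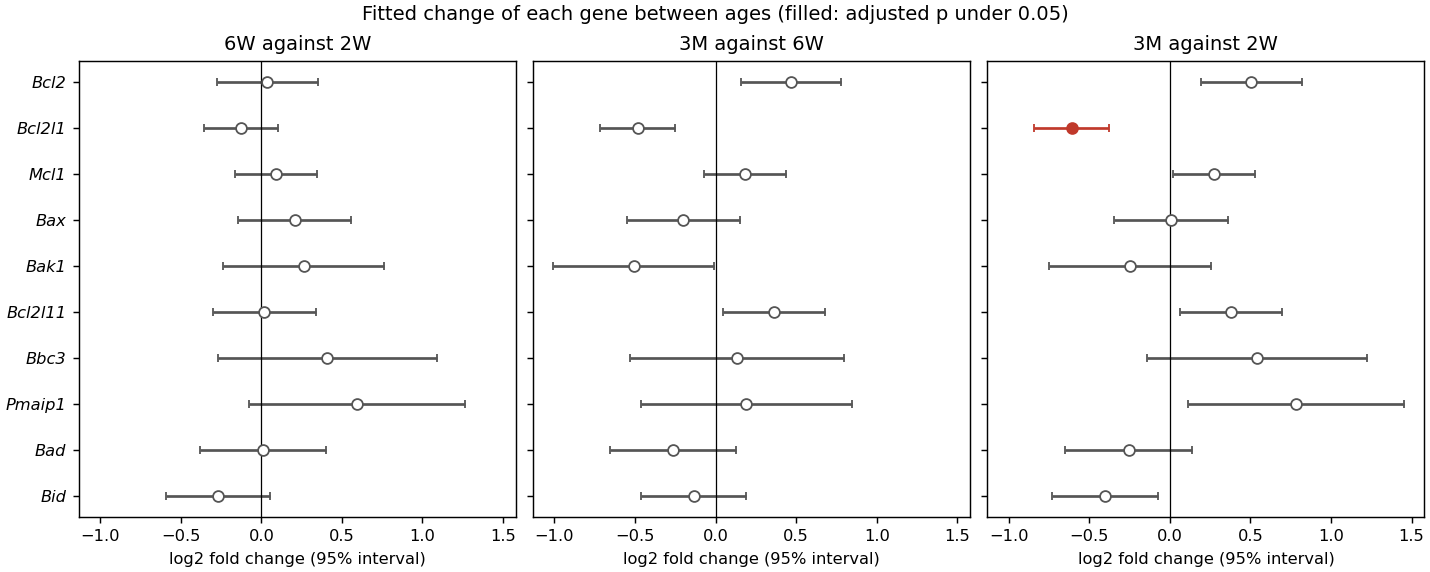
Fitted log2 fold change (horizontal axes) of each gene in the 3 comparisons, with 95% intervals from edgeR's quasi-likelihood fit on 2 libraries per age. The filled red point, Bcl2l1 in 3M against 2W at -0.61, is the only one with an adjusted p under 0.05.

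By mean FPKM over the 6 libraries the order was Mcl1 (116), Bcl2l1 (84.2), Bcl2l11 (30.4), Bcl2 (20.4), Bax (20.2), Bak1 (18.9), Bid (12.4), Bad (11.3), Bbc3 (3.84) and Pmaip1 (2.95). Over all libraries the ranges of neighbours from Bcl2l11 down to Bad overlapped, as did those of Bbc3 and Pmaip1, and Mcl1, Bcl2l1 and the break between Bad and Bbc3 stood clear. The Mcl1 values count its assembled row. Its annotated row alone was below Bcl2l1 in the 2W and 6W libraries. Among the 14805 genes tested, the level of Mcl1 was above 96.8% of genes and that of Bcl2l1 above 95.1%, while Pmaip1 was above 33.0%. Bcl2 took rank 6 of the members at 2W and 6W and rank 4 at 3M, where its range of 24.0 to 27.9 FPKM was above those of Bax and Bak1.

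The members held 47 transcript rows, of which 32 could be tested and 19 carried at least 10% of a member's counts. No row was called in any comparison by edgeR, nor was any of all 35277 rows (0% in each), with 2721 (7.71%), 2439 (6.91%) and 3898 (11%) rows at an unadjusted p under 0.05 and 1779, 1384 and 3093 called by DESeq2. The rows of 1 gene share reads, so their split is an estimate of the quantification program.

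Bcl2l1 had 3 such rows. ENSMUST00000109820, with 46.6% of its counts, was at 105 and 103 CPM at 2W, 105 and 123 CPM at 6W, and 49.4 and 66.3 CPM at 3M. Both 3M libraries were below the others. Its log2 fold change was -0.98 ± 0.18 (SE) for 3M against 6W (edgeR unadjusted p = 0.00296, adjusted p = 0.655). ENSMUST00000007803, with 27.1% of the counts, was at 58.7 and 52.6 CPM at 2W, 60.6 and 48.8 CPM at 6W, and 49.7 and 53.3 CPM at 3M, so its ages overlapped (log2 fold change -0.09 ± 0.15 for 3M against 6W). ENSMUST00000134902, with 16.5% of the counts, was at 38.3 and 44.7 CPM at 2W, 26.9 and 29.8 CPM at 6W, and 38.7 and 23.2 CPM at 3M, where its replicates spanned the 6W values (log2 fold change 0.13 ± 0.28 for 3M against 6W). Whether the rows differ in their change was not tested, and the table does not say which row encodes the long (survival) or the short protein form.

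For Mcl1, ENSMUST00000037947 with 65.3% of the counts was at 238 and 264 CPM at 2W, 327 and 305 CPM at 6W, and 298 and 313 CPM at 3M. The assembled row TCONS_00075355, with 34.7%, was at 144 and 159 CPM at 2W, 136 and 122 CPM at 6W, and 207 and 176 CPM at 3M. The first was higher in the 6W and 3M libraries than at 2W, and the second was highest at 3M (log2 fold change 0.57 ± 0.13 for 3M against 6W, edgeR adjusted p = 0.675). When assembled rows were left out, the Mcl1 change for 3M against 6W was -0.01 instead of 0.18.

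Both rows of Bcl2 were higher at 3M than at 6W without overlap: ENSMUST00000112751 (82.0% of counts) at 125 and 119 CPM against 99.5 and 91.1 CPM, and ENSMUST00000189999 at 34.0 and 25.7 CPM against 15.7 and 17.6 CPM. The main row of Bcl2l11, ENSMUST00000110341 with 73.8% of its counts, was at 82.0 to 101 CPM in the 2W and 6W libraries and at 113 and 137 CPM at 3M. In Bbc3 an assembled row, TCONS_00103579, held 40.3% of the counts and had a log2 fold change of -0.08 for 3M against 2W, where ENSMUST00000002152 had 1.07 ± 0.50 (adjusted p = 0.529).

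**Figure D4:**
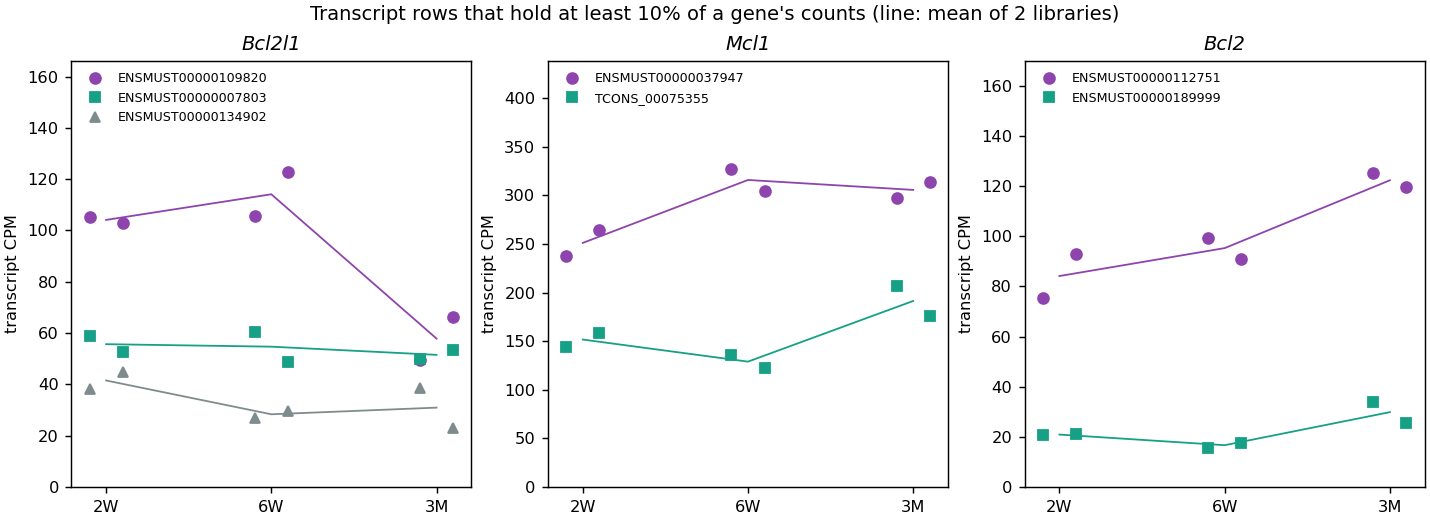
Transcript CPM (vertical axes, from 0) of the rows that hold at least 10% of the counts of Bcl2l1, Mcl1 and Bcl2. Points are libraries and lines join the means of 2. ENSMUST00000109820 of Bcl2l1 lies at 105 and 123 CPM at 6W and at 49.4 and 66.3 CPM at 3M, while ENSMUST00000007803 lies between 48.8 and 60.6 CPM in all libraries.

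Other genes of the death and survival pathways were counted in 9 lists of 97 genes, of which 95 were tested. None was called in 6W against 2W or in 3M against 6W, where 1.74% and 0.00675% of all genes were. In 3M against 2W 14 were higher and 1 lower, where 7.91% of all genes were higher and 3.1% lower, so that 1 higher gene in a list of 9 to 12 is near that share. Among 14 further relatives of Bcl2 (12 tested), Bok, a pore-former related to Bax and Bak, was the 1 that rose, from 3.22 and 3.86 CPM at 2W to 7.34 and 9.05 CPM at 3M (log2 fold change 1.21, edgeR adjusted p = 0.0259). Bcl2l2 (Bcl-w), a survival relative, had 0.60 (adjusted p = 0.0590). The near-identical Bcl2a1a, Bcl2a1b and Bcl2a1d share reads, so their split is uncertain.

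Of the 16 apoptosome and caspase genes, none was called in 3M against 2W, and Aifm1 (log2 fold change -0.35, edgeR adjusted p = 0.136) and Dffa (-0.29, adjusted p = 0.158) had the smallest p. In the death receptor list 1 of 9 was called higher, Fasl, the ligand of Fas, from 0.379 and 0.490 CPM at 2W to 3.67 and 1.88 CPM at 3M (log2 fold change 2.65 ± 0.60, adjusted p = 0.0383), on 6.37 and 7.77 estimated counts at 2W. It met the filter on low counts only through its 3M libraries, so it had to differ, and the call is no support for a rise. Fas itself had -0.34 (adjusted p = 0.114). Bid, the member that joins this route to mitochondria, is given above.

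Of 12 genes in the list of p53 and its targets, 2 targets rose: Phlda3 (log2 fold change 1.52, edgeR adjusted p = 0.00562) and Perp (1.02, adjusted p = 0.0108). Trp53 was at 79.4 to 105 CPM with all ages overlapping, and the members among the p53 targets, Bbc3 and Pmaip1, were not called. Of 9 genes of IL-7 and cytokine signalling, 1 rose: Il7r, the IL-7 receptor chain whose signal is known to raise Bcl2, was at 34.4 and 38.5 CPM at 2W, 70.4 and 55.3 CPM at 6W, and 85.3 and 71.4 CPM at 3M (log2 fold change 1.10 for 3M against 2W, adjusted p = 0.0126). It is also among the mature thymocyte markers.

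Of 12 transcription factors that have been named with Bcl2 family genes, 1 fell: Tcf12, the E protein HEB, from 602 and 601 CPM at 2W to 405 and 398 CPM at 3M (log2 fold change -0.58, edgeR adjusted p = 0.0137). It is expressed in DP thymocytes. In the glucocorticoid list 3 of 7 rose, Zbtb16 (1.30, adjusted p = 0.0225), Per1 (0.80, adjusted p = 0.0439) and Tsc22d3 (Gilz, 1.16, adjusted p = 0.0453), of which Tsc22d3 was at 116 and 211 CPM in the 3M replicates.

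Of these 9 lists, the one with the most calls was the clearance of dying cells, with 6 of 12 higher in 3M against 2W, against 7.91% of all genes higher. They included Gas6, a bridge between dying cells and receptors (log2 fold change 0.93, edgeR adjusted p = 0.0124), its receptors Mertk (1.11, adjusted p = 0.0145) and Axl, and the complement component C1qb (1.21, adjusted p = 0.0142). Several of these are macrophage genes, and the 7 macrophage and dendritic cell markers summed to 134 to 151 CPM at 2W, 250 to 274 CPM at 6W and 255 to 302 CPM at 3M, with 6 of 7 higher and none at 0. Fat cell markers moved as well, with 4 of 5 higher at sums of 32.5 to 35.4 CPM at 2W, 87.8 to 96.0 CPM at 6W and 104 to 189 CPM at 3M.

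Of the 6 cycling cell markers all fell between 2W and 3M, where 3.1% of all genes were lower and 7.91% higher, with sums of 3605 to 3606 CPM at 2W and 1926 to 2438 CPM at 3M. Thymic epithelium markers gave 2 of 8 higher and 1 lower (1330 to 1392 CPM at 2W, 1741 to 1867 CPM at 3M), fibroblast and endothelium markers 2 of 6 higher and 1 lower, and B cell markers none of 5. How much these cell types add to the members' values was not tested.

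The genes nearest to 3 members in their course over the 6 libraries were found by Pearson's r of log2 CPM, as a description. They were Smurf2, Alcam and Ermp1 for Bcl2 (r = 0.996 to 0.997), Ero1lb, Igkv9-124 and Pfn2 for Mcl1 (r = 0.995 to 0.998), and Gprc5a, Slc45a4 and Ctnnd1 for Bcl2l11 (r = 0.991 to 0.993). In all, 168, 162 and 51 genes passed r = 0.95 with these members.

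The small RNA libraries of the same ages, 9181478 to 10994118 counts each, allowed a view of 32 miRNAs known from other work to target family members. All 32 were tested among 822 miRNAs. In 6W against 2W 1 of them was called (miR-29a, higher), where 8.64% of all miRNAs were, and in 3M against 6W 1 (miR-29c, higher), where 0.852% were. In 3M against 2W 10 were higher and 5 lower, where 29.9% of all miRNAs were called, 13.5% higher and 16.4% lower. RefSeq (GRCm38.p6) held mature sequences for 31 of the 32, and they share 13 seeds. Of the groups of more than 1 sequence that hold called members, those of miR-29, miR-15 and miR-181 are shown, picked after their values were seen, since their members are described below, with the seed (bases 2 to 8) in capitals.
miR-29a-3p: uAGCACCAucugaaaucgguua
miR-29b-3p: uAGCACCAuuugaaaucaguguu
miR-29c-3p: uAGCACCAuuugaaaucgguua
miR-15a-5p: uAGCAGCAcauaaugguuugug
miR-15b-5p: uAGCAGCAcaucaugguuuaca
miR-16-5p: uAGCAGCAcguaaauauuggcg
miR-195a-5p: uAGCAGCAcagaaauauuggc
miR-497a-5p: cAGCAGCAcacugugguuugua
miR-181a-5p: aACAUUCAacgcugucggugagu
miR-181b-5p: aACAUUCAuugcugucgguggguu
miR-181c-5p: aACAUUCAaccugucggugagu
miR-181d-5p: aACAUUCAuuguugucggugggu
In 3M against 2W the fitted log2 fold changes ran from 1.40 to 2.30 in the miR-29 group, from -0.57 to 1.38 in the miR-15 group and from -0.90 to -0.16 in the miR-181 group. Differences within a group were not tested.

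The miR-29 group, known to target Mcl1 and several BH3-only genes, had all 3 of its members higher in 3M against 2W. miR-29a was at 2044 and 1729 CPM at 2W, 3240 and 3271 CPM at 6W, and 6280 and 5364 CPM at 3M. miR-29c was at 14.8 and 9.70 CPM at 2W, 23.9 and 22.4 CPM at 6W, and 68.8 and 51.5 CPM at 3M. The ages of both were apart at every step, and log2 fold changes were 1.63 for miR-29a and 2.30 for miR-29c (edgeR adjusted p = 0.000477 for each) and 1.40 for miR-29b (adjusted p = 0.00453).

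The other miRNAs below, apart from miR-125b, were picked for naming after their values were seen. In the seed group of miR-15 and miR-16, known to target Bcl2, miR-195a (log2 fold change 1.38, edgeR adjusted p = 0.00770) and miR-497a (1.02, adjusted p = 0.0153) were higher at 3M than at 2W. Their abundant relatives miR-16 (-0.12, adjusted p = 0.724) and miR-15b (-0.25, adjusted p = 0.395) were not called. miR-16 stood at 12918 to 18663 CPM in the 6 libraries and miR-195a at 27.9 to 108 CPM, so the members of the group that rose were the scarce ones.

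The miR-181 group, known for tuning receptor signals in DP thymocytes and for targeting Bcl2, was the most abundant. miR-181a was at 254660 to 327130 CPM in the 6 libraries and was not called (3M against 2W log2 fold change -0.23, edgeR adjusted p = 0.326). miR-181b fell from 22091 and 25575 CPM at 2W to 13016 and 12611 CPM at 3M (-0.90, adjusted p = 0.00597), and miR-181d fell too (-0.80, adjusted p = 0.0112). These libraries came from the same tissue in which DP markers were lower at 3M, and the part of that in the miRNA values was not tested.

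Among miRNAs known to target other members, miR-125b (Bak1) was at 8389 and 7366 CPM at 2W, 12527 and 9849 CPM at 6W, and 30671 and 19900 CPM at 3M (3M against 2W log2 fold change 1.68, edgeR adjusted p = 0.00143). miR-34a (Bcl2, under p53) had 0.85 (adjusted p = 0.0170) and miR-24 1.13 (adjusted p = 0.00555). miR-221 (0.81, adjusted p = 0.0448) and miR-222 (0.67, adjusted p = 0.0405), which target Bbc3, were higher as well. Of the 9 miRNAs with a miR-17, miR-19 or miR-92 seed, families known to hold down Bim, all had a fitted change below 0, where the median over all 822 miRNAs was -0.12. They are not 9 separate observations. The sequences of miR-17, miR-20a, miR-19a and copies of miR-19b and miR-92a lie close together on chromosome 14, and those of miR-106b, miR-93 and miR-25 on chromosome 5. Of the 9, 2 were called lower by edgeR, where 16.4% of all were: miR-20a (-0.71, adjusted p = 0.0250) and miR-25 (-0.66, adjusted p = 0.0445). miR-128, which can target Bax, fell too (-0.85, adjusted p = 0.0194). No target site was examined here, and no relation of a miRNA to its target was tested.

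**Figure D5:**
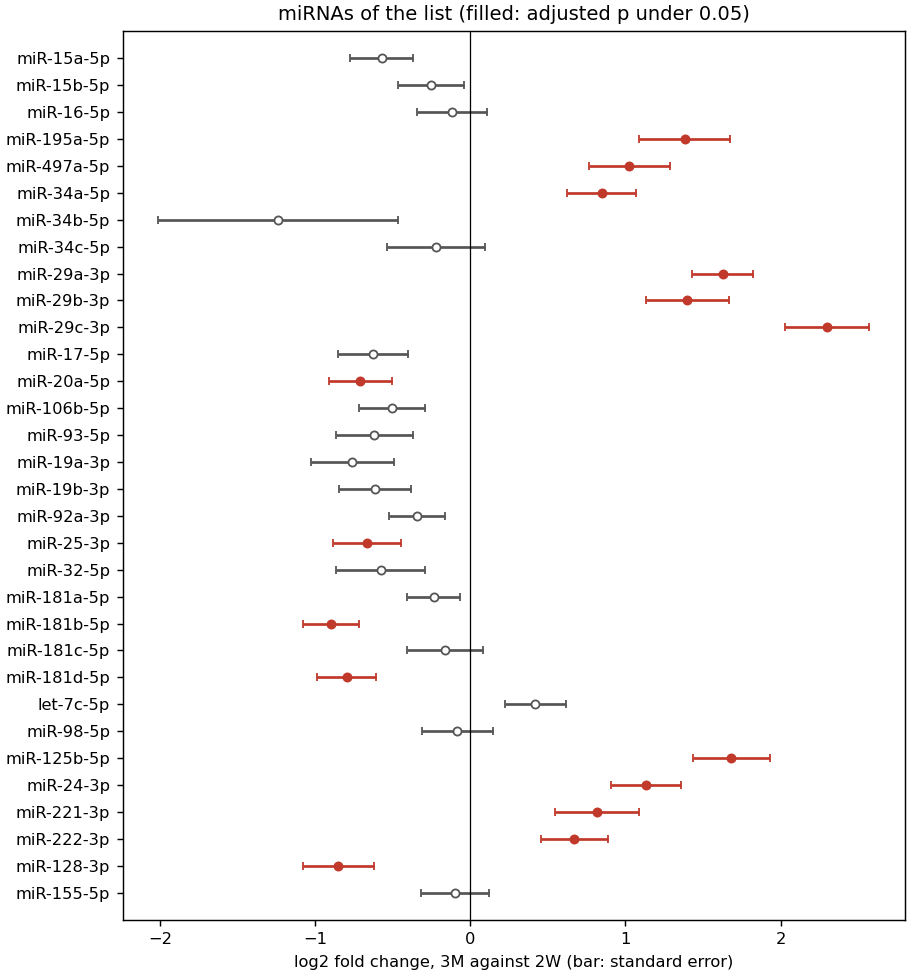
Fitted log2 fold change (horizontal axis, bar is the standard error) of the 32 miRNAs in 3M against 2W, grouped by family from top to bottom. Filled red points have an adjusted p under 0.05 in edgeR, 10 above 0 and 5 below, and the miR-29 group reaches 2.30.

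Circular RNAs from member genes were at the limit of detection. Of 6300 in the table, 4 named a member as source gene: novel_circ_000220 (Bcl2), novel_circ_003576 (Bcl2l11), and novel_circ_003628 and novel_circ_003629 (Bcl2l1). novel_circ_003576 had 4 junction counts in 6W replicate 1 and 3 in 3M replicate 1, novel_circ_000220 had 4 in 3M replicate 1, and the others had 2 each in 3M replicate 1. All other libraries were at 0, which with totals of 10663 to 21914 junction counts allows up to 3 counts, or 137 to 281 RPM (junction counts scaled to the library's total), by counting error alone. No difference between ages could be read at this depth.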

How the data were processed

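Thymus RNA of 6 mice, 2 per age, was sequenced as ribosomal RNA-depleted, strand-marked libraries (mRNA and circRNA) and as small RNA libraries (miRNA). For mRNAs the authors deposited estimated counts and FPKM per transcript row (77525 rows). The deposited miRNA counts are tags per miRNA, and the deposited circRNA counts are back-spliced junctions. The quantification program is not given in the sources used here. The submitters' processing notes list Bowtie 0.12.2 and mm8 with no role, and positions here are RefSeq's on GRCm38.p6.

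Rows of a symbol were added up, with upper and lower case spellings treated as 1 gene (665 genes, no member). The 372 rows without a symbol, 0.699% to 1.20% of counts, were left out. Sums were rounded. Tests used edgeR 4.0.16 in R 4.3.3 (TMM, filterByExpr, quasi-likelihood F test, all 6 libraries, age as the only term) with Benjamini-Hochberg adjustment over all 14805 genes, 35277 transcript rows or 822 miRNAs. A feature was called at an adjusted p under 0.05. DESeq2 1.42.0 and limma 3.58.1 on log2(FPKM + 1), where a pseudocount of 1 understates changes of low genes, served as alternatives. Tables, sequences and plots were handled with Python 3.11.15, pandas 2.3.3, numpy 2.4.6 and matplotlib 3.10.9. The other alternatives were total-count scaling, no filter, only the 4 libraries compared, a replicate block, exact spelling of symbols, annotated rows only, and each library left out. P-values rest on 2 biological replicates per age. Intervals and floors for circRNAs cover counting error only.

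The members and the gene, marker and miRNA lists were chosen with earlier results of these data known. All members are named. From each other list, up to 4 called genes with the smallest p are named, or up to 2 where none was called. Foxo3, Trp53, Fas, Bcl2l2, Bmf and further markers were named after their values were seen. The lncRNA table was not used. 1 gene of the lists is not reported here and was left out of their counts and sums.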

Additional observations from a re-analysis of the deposited data

How the results depend on the processing

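With 2 biological replicates per age the errors are wide, and the number of calls moved with the settings more than the fitted changes did. Calls over all genes at 6W against 2W were 257 and became 888 with DESeq2, 395 with total-count scaling, 467 with no filter, 662 with the 4 libraries compared, 124 with exact spelling, 4 with annotated rows only and 0 to 658 with a library left out. At 3M against 6W the 1 call became 341 with DESeq2, 19 with no filter, 6 with limma, 0 with the 4 libraries, exact spelling or annotated rows, and 0 to 11 with a library left out. At 3M against 2W the 1630 calls became 663 with the 4 libraries, 922 with annotated rows and 239 to 1741 with a library left out. Members called were 1 at 3M against 6W with DESeq2 (Bcl2l1), and at 3M against 2W 2 with DESeq2, total counts or limma (Bcl2 and Bcl2l1), 0 with the 4 libraries, and 0 to 1 with a library left out. Transcript rows called were 1779, 1384 and 3093 with DESeq2 in the order of the report, and 6 at 3M against 2W with no filter. Calls among miRNAs were 109 at 6W against 2W with no filter, 44 with DESeq2 and 47 with no filter at 3M against 6W, and 3 to 105, 0 to 22 and 158 to 208 with a library left out.

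The replicate block gave 5, 0 and 742 calls among genes and 0 among members at 3M against 2W, where Bcl2l1 had an adjusted p of 0.0566. Numbers did not pair the samples: the deviations of same-numbered libraries correlated at -0.044, -0.126 and 0.335 (genes) and 0.224, -0.15 and -0.07 (miRNAs).

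Over all settings, 13 values of member changes had the opposite sign to the reported one, none of them called, and they belong to the genes and comparisons given next. Fits that omit 1 library gave from -0.06839 to 0.18 for Bcl2, -0.07986 to 0.14 for Bcl2l11 and -0.10 to 0.16 for Bad at 6W against 2W, from -0.24 to 0.40 for Bbc3 and -0.11 to 0.40 for Pmaip1 at 3M against 6W, and from -0.18 to 0.17 for Bax and -0.51 to 0.01426 for Bak1 at 3M against 2W. Other changes kept their sign and moved by over 1.5 times without 1 library. At 6W against 2W these were Mcl1 (0.028 to 0.18), Bax (0.14 to 0.28), Bak1 (0.07 to 0.52), Bbc3 (0.17 to 0.74), Pmaip1 (0.34 to 0.93) and Bid (-0.38 to -0.11), at 3M against 6W Mcl1 (0.12 to 0.24), Bax (-0.41 to -0.052), Bak1 (-0.79 to -0.31), Bcl2l11 (0.21 to 0.47), Bad (-0.38 to -0.16) and Bid (-0.19 to -0.077), and at 3M against 2W Bcl2l11 (0.24 to 0.50), Bbc3 (0.19 to 0.87), Pmaip1 (0.50 to 1.10), Bad (-0.38 to -0.11) and Bid (-0.54 to -0.25). With annotated rows only, Bad was at -0.002389 (6W against 2W) and Mcl1 at -0.00938 (3M against 6W), while Mcl1 at 6W against 2W was at 0.27 and Bbc3 at 0.65, 0.37 and 1.02 in the order of the report. Limma moved Mcl1 (0.19) and Bid (-0.17) at 6W against 2W and Bbc3 (0.052) and Pmaip1 (0.08) at 3M against 6W, and total counts moved Bcl2l1 (-0.059) and Mcl1 (0.16) at 6W against 2W. Changes fitted under 0.05 in size moved by more than 1.5 times under several settings. With DESeq2, Bax was at -0.0002329 (3M against 2W). Another scaling moved the median of all genes by less than 0.1 on the log2 scale. Apart from leaving out the samples or rows named, the cause of these shifts was not tested.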
